A study of Mus musculus with 24 samples.

Results

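The receptors examined here are 7 genes through which myeloid cytokines act on blood progenitors: Csf2ra and Il3ra, the ligand-binding alpha chains for GM-CSF and IL-3; Csf2rb and Csf2rb2, the beta chains that signal with them; Csf3r, the G-CSF receptor; Il6ra, the IL-6 receptor alpha chain; and Il1r1, the signalling IL-1 receptor. They were taken by name from the 24091 genes of the deposited table, and all 7 were among the 13520 genes with enough reads to test. RNA was sequenced from LSKs, the Lin-negative Sca-1-positive c-Kit-positive marrow fraction that holds the stem and early progenitor cells of the mouse, in 4 groups of 6 mice with 3 females and 3 males each. WT mice were C57BL/6 mice, and the mice of the other groups were of the same strain. miR-142 KO mice lacked both germline copies of Mir142 in every cell. CP CML mice carried a tetracycline-off BCR-ABL transgene driven from the SCL promoter, which is active in stem and progenitor cells, and their cells were taken 2 weeks after BCR-ABL was switched on by tetracycline withdrawal; this model of chronic-phase chronic myeloid leukaemia does not go on to blast crisis by itself. BC CML mice carried the same transgene without Mir142, were induced in the same way, and stand for blast crisis. The ages of the mice were not given in the sources used here, and the methods give a smaller number of mice per group than the labels, which were followed.

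Each library held between 16267965 and 24687077 counts in genes, and CP CML replicate 1 was the shallowest. The receptors had between 319 and 12753 counts in a library, so counting error was small beside the spread between mice. The Mir142 gene had 94 to 127 counts in WT and 68 to 153 in CP CML libraries and 0 counts in every miR-142 KO and BC CML library, which fits the labels. The summed CPM (counts relative to library size, scaled to a fixed total as is usual for RNA-seq) of the gate genes Kit, Ly6a, Cd34, Cd48 and Slamf1 was 2059 to 2626 over all libraries and came mostly from the more abundant of them. Singly they differed: in BC CML over CP CML 1 rose and 2 fell, where 20.2% of all tested genes rose and 17.5% fell. The median of Ly6a (Sca-1) was 42.4 CPM in WT, 81.5 CPM in miR-142 KO, 51.6 CPM in CP CML mice and 106 CPM in BC CML mice. In the WT and miR-142 KO groups, a library of each stood apart in markers of other cells. WT replicate 3 had 1166 CPM over 9 macrophage genes, against 62.3 to 217 in the other WT libraries, and 4911 CPM over 8 neutrophil-primed genes, against 1293 to 2641. miR-142 KO replicate 3 had 2835 CPM over the neutrophil-primed genes, against 6260 to 7657 in the other miR-142 KO libraries. Where the call or the sign of a receptor's fold change differs without both of these libraries, the values found without them are given. In sorted bulk cells, more cells of a type that makes a receptor and more receptor RNA per cell cannot be told apart.

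GM-CSF, IL-3 and the related IL-5 each bind an alpha chain of their own and share a beta chain, which carries JAK2 and passes the signal to STAT5. Mice have a further beta chain, encoded by Csf2rb2, that works with the IL-3 receptor alone. G-CSF binds pairs of Csf3r chains and drives granulocyte production; IL-6 binds Il6ra and then the common chain gp130, encoded by Il6st; IL-1 binds Il1r1 and its accessory chain Il1rap, and signals through MyD88 to NF-κB. In healthy marrow the GM-CSF, IL-3 and G-CSF receptors grow more abundant as stem cells commit to the myeloid lineages, while IL-1 acts on stem cells themselves in inflammation. miR-142 is a microRNA restricted to blood cells.

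The microRNA deleted in these mice has a pair of mature arms. Their sequences are shown because a site for either seed in a receptor transcript can be looked up directly; the seed, bases 2 to 8, is in capitals, and both lie on the plus strand in GRCm38.p6 (RefSeq). The 5p arm is at chr11:87756867-87756887 and the 3p arm at chr11:87756903-87756925.
mmu-miR-142a-5p: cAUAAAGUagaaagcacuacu
mmu-miR-142a-3p: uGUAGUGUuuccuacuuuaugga
The 7-base sites that pair with these seeds are ACTTTAT and ACACTAC. They were searched for on the transcript strand, in the longest 3′ UTR among the protein-coding transcripts of each gene (GENCODE, GRCm38). Of the 7 receptors, Il6ra alone held a match: 1 site for the 3p seed, in a UTR of 7102 bases. The other 6, with UTRs of 585 to 3864 bases, held none. Over all tested genes with a UTR, 12618 in number with a median UTR of 1178.5 bases, 6.97% held a 3p site, 15.9% a 5p site and 20.8% either. The chains that signal with 2 of the receptors held sites too. Il6st had 2 for each seed, in a UTR of 5641 bases, and Il1rap had 1 for the 5p seed, in 2676 bases. Both UTRs are longer than the median, and longer UTRs have more room for a match. The windows are printed 5′ to 3′ on the transcript strand with the seed match in capitals. The Il6ra window is chr3:89870208-89870237 on the minus strand, the Il6st windows are chr13:112506251-112506280 and chr13:112509876-112509905 on the plus strand, and the Il1rap window is chr16:26716714-26716743 on the plus strand.
Il6ra, 3p site: gccgctcactgcACACTACtgtatgaaccc
Il6st, first 3p site: agaccagaattcACACTACaaggctggcac
Il6st, second 3p site: tggttaagtcccACACTACtacaagcccag
Il1rap, 5p site: gcttgagtttctACTTTATtccctgaggtc
A match is a description of the letters and not a measured site. The levels of these genes are given with their receptors below.

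Between BC CML and CP CML, which differ in Mir142 on a BCR-ABL background, 4 of the 7 receptors rose and 1 fell. Csf2rb2 rose 2.51-fold, Csf2rb and Csf3r 1.41-fold each and Csf2ra 1.27-fold, and Il1r1 was 1.76-fold lower. Among all tested genes, 20.2% were higher and 17.5% lower in that comparison by the same test (edgeR's quasi-likelihood test, Benjamini-Hochberg adjusted p under 0.05). For 4 receptors, Csf2ra, Csf2rb2, Csf3r and Il1r1, the 6 BC CML libraries did not overlap the 6 CP CML libraries, which held for 20.7% of all tested genes. The median log2 fold change of the receptors was 0.34, against 0.014 for all tested genes. With upper-quartile scaling the split over all genes turned from 2732 higher and 2369 lower to 2157 higher and 2897 lower.

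Between miR-142 KO and WT, which differ in Mir142 without BCR-ABL, 5 receptors rose: Csf2rb2 2.11-fold, Csf2rb 1.83-fold, Csf3r 1.31-fold, Csf2ra 1.29-fold and Il3ra 1.23-fold. None fell by edgeR's quasi-likelihood test, its likelihood ratio test or DESeq2, and 1, Il1r1, was lower at an unadjusted p of 0.0496. Of all tested genes, 19.8% were higher and 16.3% lower in that comparison, 2672 against 2210, a split that became 2109 against 2911 with upper-quartile scaling. Only Csf3r had groups that did not overlap, as did 14.5% of all tested genes. The median log2 fold change was 0.37 for the receptors and 0.0054 for all tested genes. The comparison shares no libraries with BC CML against CP CML, and Csf2ra, Csf2rb, Csf2rb2 and Csf3r passed the test upward in both.

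Between CP CML and WT, which differ in BCR-ABL with Mir142 present, 5 receptors rose: Csf2rb2 6.18-fold, Csf2rb 3.22-fold, Il1r1 1.39-fold, Il6ra 1.38-fold and Il3ra 1.20-fold. None fell by edgeR's quasi-likelihood test, 1 was lower at an unadjusted p under 0.05, and that receptor, Csf3r, was also called lower by the likelihood ratio test and by DESeq2. In all tested genes 22.5% were higher and 22.8% lower, and 21.8% had groups that did not overlap, as had 3 receptors, Csf2rb, Csf2rb2 and Il1r1. The median log2 fold change was 0.46 for the receptors and -0.020 for all tested genes. Between BC CML and miR-142 KO, which differ in BCR-ABL without Mir142, Csf2rb rose 2.47-fold and Csf2rb2 7.34-fold, and both had groups that did not overlap. None of the 7 fell by edgeR, by DESeq2 or at an unadjusted p under 0.05. Over all tested genes, 20.2% were higher, 19.1% lower and 10.6% without overlap, and the median log2 fold change was 0.15 for the receptors and -0.019 for all. These 2 comparisons are made from the same 24 libraries as the first 2, so the 4 are not independent of each other.

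**Figure D1:**
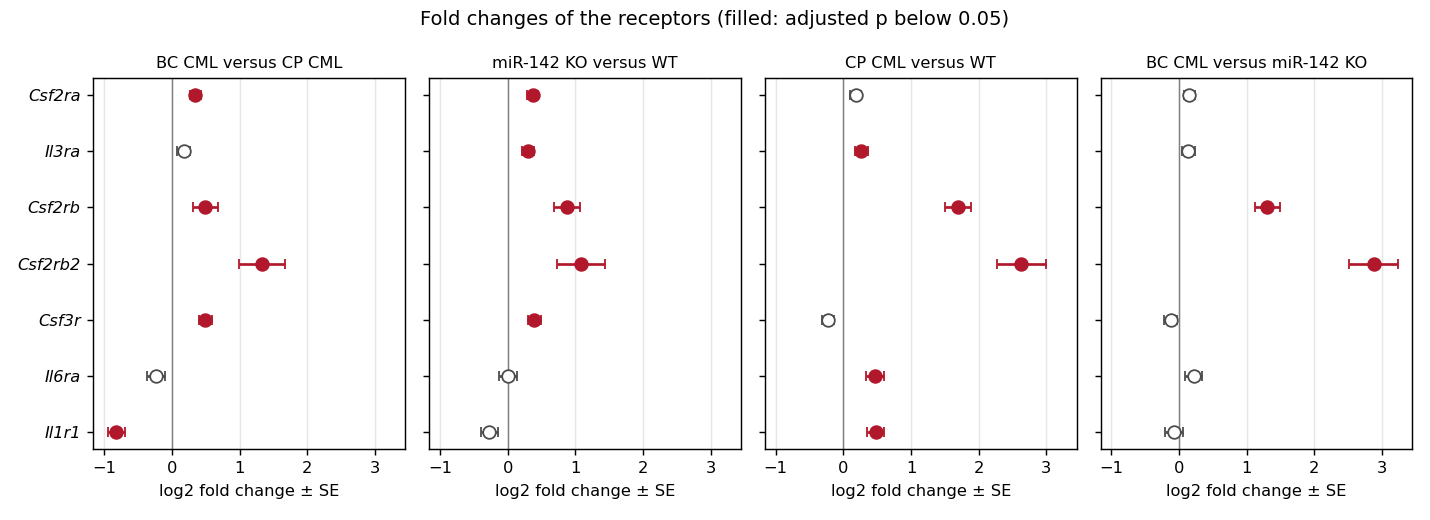
Log2 fold changes of the 7 receptors in 4 comparisons (horizontal axis, error bars are standard errors; filled red points passed edgeR's test at an adjusted p of 0.05). Csf2rb2 and Csf2rb lie to the right of 0 in every panel, and Il1r1 lies at -0.82 in BC CML against CP CML and at 0.48 in CP CML against WT.

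Whether the change that goes with Mir142 differed between the BCR-ABL and the normal background was tested as a difference of both log2 fold changes. For 0 of the 7 receptors did it pass edgeR's quasi-likelihood or likelihood ratio test, as it did for 3.89% of all tested genes. Il1r1, at -0.55 ± 0.18 (SE), had an unadjusted p of 0.00645 and an adjusted p of 0.0936 by edgeR, and DESeq2 called it, at an adjusted p of 0.0369. For the other 6 the differences lay between -0.38 and 0.25, with adjusted p from 0.464 to 0.926 by edgeR and standard errors up to 0.49, the largest being that of Csf2rb2.

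Csf2ra, the alpha chain that gives the GM-CSF receptor its specificity (chr19:61224402-61228418, minus strand, mm10), was at 42.5, 44.3 and 52.3 CPM in WT mice (lowest, median and highest), at 44.8, 60.6 and 68.0 CPM in miR-142 KO mice, at 46.7, 49.0 and 59.5 CPM in CP CML mice and 61.3, 64.7 and 70.1 CPM in BC CML mice. Every BC CML library was above every CP CML library, and the miR-142 KO group overlapped WT through replicate 3, its lowest library. The log2 fold change was 0.34 ± 0.081 (SE, n = 6 per group) in BC CML over CP CML, with an edgeR adjusted p of 0.00179, and 0.37 ± 0.081 in miR-142 KO over WT, with an adjusted p of 0.000893. The difference between these steps of the GM-CSF alpha chain, -0.030 ± 0.12, was smaller than its error. Over WT, CP CML differed by 0.18 ± 0.081 (edgeR adjusted p = 0.0686), and by 0.24 (adjusted p = 0.00377) without WT and miR-142 KO replicates 3, where WT replicate 3 was the highest of its group. BC CML and miR-142 KO differed by 0.15 ± 0.081 (edgeR adjusted p = 0.134).

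Il3ra, the alpha chain of the IL-3 receptor (chr14:14346495-14355490, plus strand), moved little. It was at 18.0, 21.4 and 25.8 CPM in WT mice, 23.2, 26.5 and 31.0 CPM in miR-142 KO mice, 20.8, 25.8 and 29.2 CPM in CP CML mice and 26.8, 28.4 and 33.0 CPM in BC CML mice. The groups overlapped in each of the 4 comparisons. It rose by 0.30 ± 0.094 (log2, SE) in miR-142 KO over WT, with an edgeR adjusted p of 0.0136, and by 0.26 ± 0.094 in CP CML over WT, with an adjusted p of 0.0245. The second of these calls was lost on leaving out WT replicate 1, WT replicate 4 or CP CML replicate 2, with adjusted p of 0.0673, 0.0533 and 0.0516. BC CML differed from CP CML by 0.17 ± 0.093 (edgeR adjusted p = 0.144) and from miR-142 KO by 0.14 ± 0.093 (adjusted p = 0.249).

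The beta chains had the widest range of the 7. Csf2rb, the common chain of the GM-CSF, IL-3 and IL-5 receptors (chr15:78325798-78353847, plus strand), was at 78.3, 95.2 and 147 CPM in WT mice, 104, 183 and 277 CPM in miR-142 KO mice, 257, 330.0 and 382 CPM in CP CML mice and 352, 486 and 516 CPM in BC CML mice. All CP CML libraries were above all WT libraries, and all BC CML libraries above all miR-142 KO libraries, while BC CML replicate 3 lay among the CP CML libraries. Csf2rb rose by 1.69 ± 0.19 (log2, SE) in CP CML over WT, with an edgeR adjusted p of 1.09e-06, and by 1.31 ± 0.19 in BC CML over miR-142 KO, with an adjusted p of 2.87e-05. Loss of Mir142 went with the smaller steps of this chain. They were 0.88 ± 0.19 in miR-142 KO over WT (edgeR adjusted p = 0.00106) and 0.49 ± 0.19 in BC CML over CP CML (adjusted p = 0.0428). The latter is close to the threshold: with a library left out in turn its adjusted p ranged from 0.0202 to 0.107, and it was 0.0601 with upper-quartile scaling.

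Csf2rb2, the beta chain that serves IL-3 alone in mice (chr15:78282508-78305721, minus strand), lies on chromosome 15 next to Csf2rb, on the opposite strand, with the starts 20.1 kb apart. It was at 16.8, 23.8 and 39.0 CPM in WT mice, 13.6, 53.9 and 85.2 CPM in miR-142 KO mice, 102, 148 and 235 CPM in CP CML mice and 244, 387 and 541 CPM in BC CML mice. BC CML lay above CP CML in every library and CP CML above both non-leukaemic groups, whereas miR-142 KO replicate 4 was below all WT libraries. Csf2rb2 rose by 2.63 ± 0.36 (log2, SE) in CP CML over WT (edgeR adjusted p = 1.33e-05) and by 2.88 ± 0.36 in BC CML over miR-142 KO (adjusted p = 6.83e-06). It was the largest change among the receptors in each of the 4 comparisons. With loss of Mir142 it rose by 1.33 ± 0.34 in BC CML over CP CML (edgeR adjusted p = 0.00432) and by 1.08 ± 0.35 in miR-142 KO over WT (adjusted p = 0.0212). Without miR-142 KO replicate 3, the highest of its group, the last of these was 0.90 with an adjusted p of 0.0605.

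The change of Csf2rb2 was also taken within each sex, with 3 libraries in each arm. In BC CML over CP CML, its mean log2 CPM differed by 1.84 in males and 0.78 in females, and in miR-142 KO over WT by 0.38 in males and 1.45 in females. Csf2rb had the same order, at 0.77 in males and 0.22 in females in the first comparison and 0.62 and 1.07 in the second. The difference between the sexes was not tested. Csf2ra differed by 0.38 in males and 0.32 in females in the first comparison and by 0.47 and 0.26 in the second. The CP CML males also had higher sums over 9 macrophage genes, 416 to 539 CPM against 80.0 to 109 CPM in the females, and these 3 were the CP CML libraries with the least Csf2rb and Csf2rb2; the part of those cells was not tested.

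**Figure D2:**
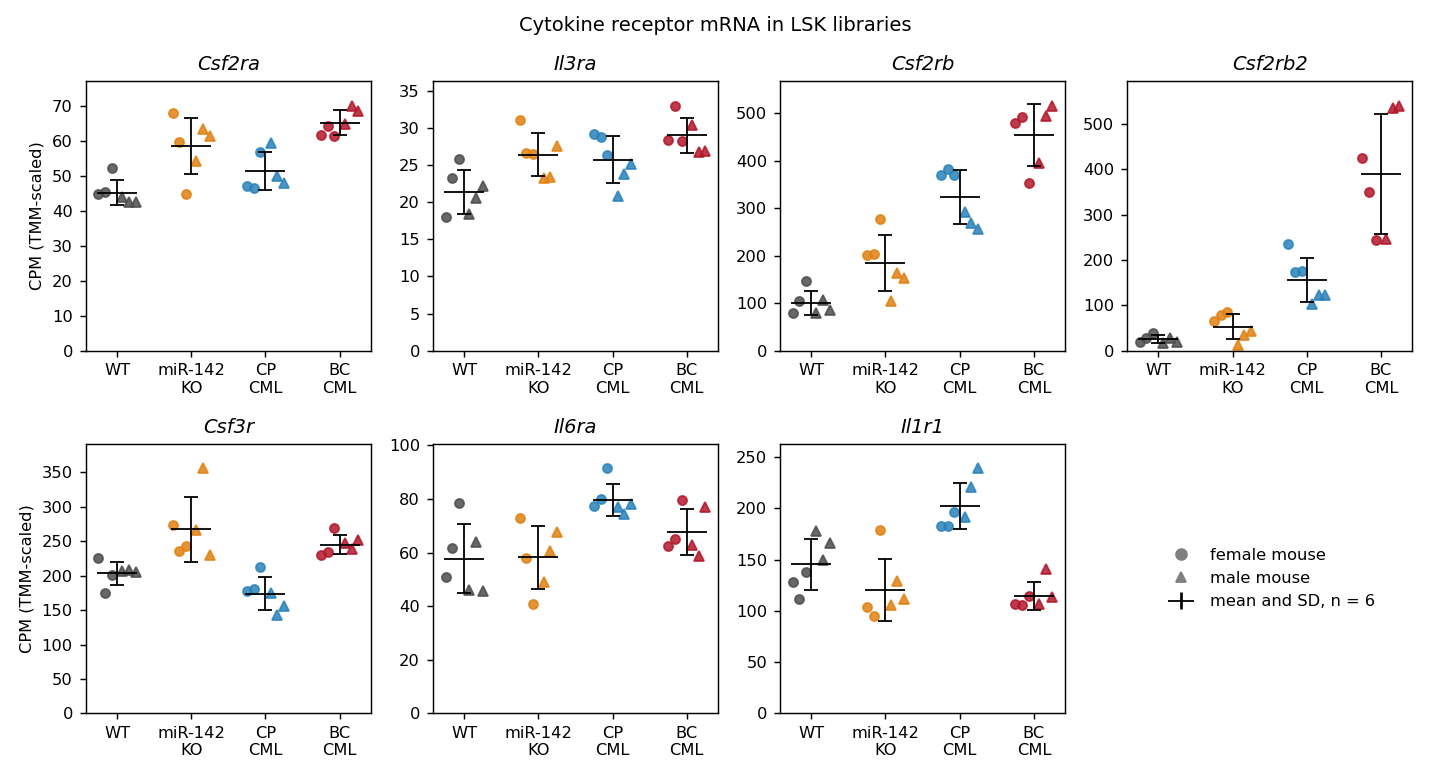
CPM of each receptor in the 24 libraries by group (circles are females, triangles males, bars are the mean ± SD of 6 libraries, each panel has its own vertical axis from 0). Csf2rb2 lies at 244 to 541 CPM in BC CML and at 16.8 to 39.0 CPM in WT, and Il1r1 at 183 to 239 CPM in CP CML and 105 to 141 CPM in BC CML.

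The beta chain genes are near copies of each other, so some reads can fit both, and their separate counts are uncertain where the sequences agree. Over their aligned transcripts, 4262 of 4651 bases (91.6%) were identical. Of the 4664 windows of a read's length in the Csf2rb transcript, 329 (7.05%) were found unchanged in that of Csf2rb2. The stretch of 90 coding bases with the most differences, 16, is shown to let the genes be told apart; capitals mark the bases that differ. Csf2rb is at chr15:78338897-78338986 on the plus strand and Csf2rb2 at chr15:78294345-78294434 on the minus strand (GENCODE transcripts, GRCm38), each printed along its own transcript.
Csf2rb: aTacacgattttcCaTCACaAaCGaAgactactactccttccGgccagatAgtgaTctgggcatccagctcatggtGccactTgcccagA
Csf2rb2: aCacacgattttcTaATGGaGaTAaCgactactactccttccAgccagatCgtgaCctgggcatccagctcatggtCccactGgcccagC

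Per kilobase of the deposited gene length, the level of Csf2rb2 relative to Csf2rb was higher in both groups with BCR-ABL. It averaged 0.278 in WT mice, 0.307 in miR-142 KO mice, 0.537 in CP CML mice and 0.949 in BC CML mice, where it ranged from 0.703 to 1.23. On the log2 scale this ratio was -1.85 ± 0.16 (SD, n = 6) in WT mice, -1.78 ± 0.56 in miR-142 KO mice, -0.92 ± 0.27 in CP CML mice and -0.11 ± 0.34 in BC CML mice. The CP CML ratios did not overlap the WT ratios, nor did the BC CML ratios overlap those of miR-142 KO. The alpha chains, relative to the common chain, were lower in the groups with BCR-ABL. Csf2ra per Csf2rb averaged 1.36 in WT mice, 1.02 in miR-142 KO mice, 0.475 in CP CML mice and 0.423 in BC CML mice, and Il3ra per Csf2rb averaged 0.845, 0.597, 0.311 and 0.251. Both ratios lay apart between CP CML and WT, and that of Il3ra also between BC CML and miR-142 KO.

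**Figure D3:**
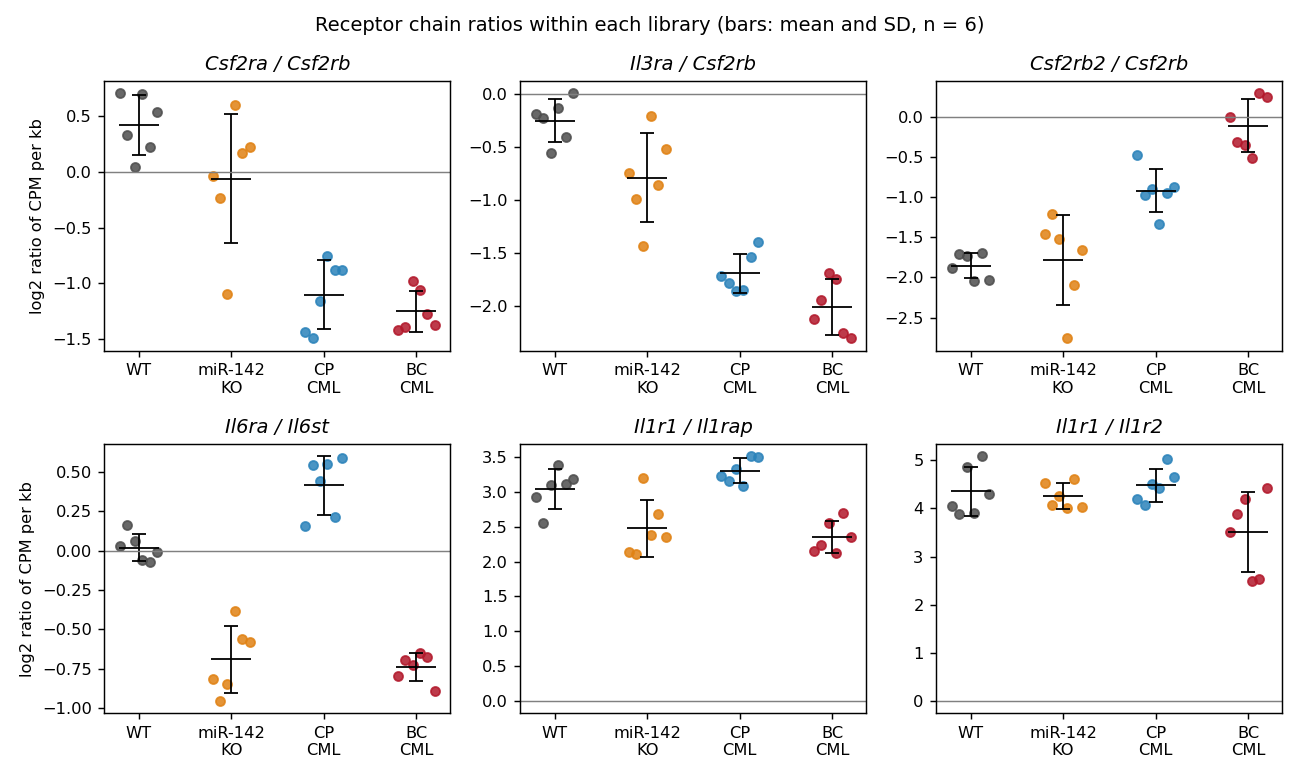
Log2 ratio of CPM per kilobase between receptor chains, by group (points are libraries, bars are the mean ± SD of 6). Csf2rb2 per Csf2rb runs from -1.85 in WT to -0.11 in BC CML, and Il6ra per Il6st lies at -0.69 and -0.74 in the groups without Mir142.

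Mast cells and basophils make both beta chains, and the group medians of their summed markers had the same order as those of these genes. Over 9 such genes (Cpa3, Mcpt8, Ms4a2, Fcer1a, Prss34, Cma1, Tpsb2, Tpsab1 and Hdc) the summed level was 91.3, 437 and 601 CPM in WT mice (lowest, median and highest), 284, 1091 and 2735 CPM in miR-142 KO mice, 1975, 2926 and 4030 CPM in CP CML mice and 5537, 8989 and 11988 CPM in BC CML mice. Of the 9 genes 6 rose in BC CML over CP CML, 5 in miR-142 KO over WT, 7 in CP CML over WT and 7 in BC CML over miR-142 KO, and none fell by edgeR. Of all tested genes, 20.2%, 19.8%, 22.5% and 20.2% were higher in these comparisons. The mast cell tryptase Tpsab1 was at 0 to 5 counts in WT and 0 to 4 in miR-142 KO libraries, and at 333 to 1658 counts in CP CML mice and 565 to 1731 in BC CML mice. Not all 9 genes had this pattern. In the order WT, KO, CP CML, BC CML, the medians of Mcpt8 were 104, 263, 124 and 130 CPM. Those of Prss34 were 144, 417, 115 and 150 CPM, so both were highest in miR-142 KO. The BC CML sum came mostly from Cpa3, Tpsb2 and Cma1, with medians of 4164, 1766 and 1657 CPM there. Within groups the sum and Csf2rb2 did not always go together. BC CML replicate 6 had 541 CPM of Csf2rb2 and a sum of 7221 CPM, and replicate 1 had 424 and 11988 CPM. miR-142 KO replicate 3 had 85.2 CPM of Csf2rb2 and a sum of 701 CPM, and replicate 2 had 78.1 and 2735 CPM. The part of mast cells and basophils in the Csf2rb and Csf2rb2 results was not tested.

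**Figure D4:**
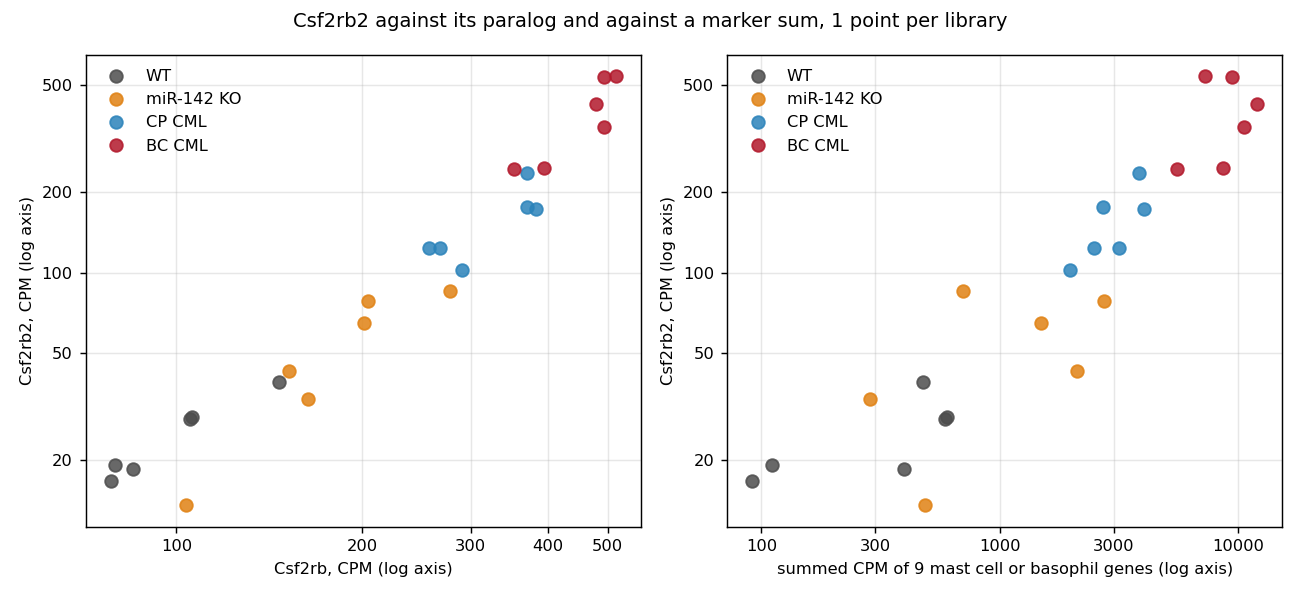
Csf2rb2 CPM against Csf2rb CPM and against the summed CPM of 9 mast cell and basophil genes, 1 point per library, coloured by group, log axes. Csf2rb2 spans 13.6 to 541 CPM while Csf2rb spans 78.3 to 516 CPM, and the marker sum runs from 91.3 CPM in WT to 11988 CPM in BC CML.

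Csf3r, the receptor through which G-CSF drives neutrophil production (chr4:126024659-126044975, plus strand), rose in both comparisons of loss of Mir142 and was not called in either comparison of BCR-ABL. It was at 175, 206 and 226 CPM in WT mice, 229.8, 255 and 356 CPM in miR-142 KO mice, 143, 176 and 213 CPM in CP CML mice and 230.1, 243 and 269 CPM in BC CML mice. Every library without Mir142 was above every library of its own background with it. The rise was 0.49 ± 0.093 (log2, SE) in BC CML over CP CML (edgeR adjusted p = 0.000215) and 0.39 ± 0.093 in miR-142 KO over WT (adjusted p = 0.00188). The values for CP CML over WT, -0.23 ± 0.093 (edgeR adjusted p = 0.0511), and BC CML over miR-142 KO, -0.13 ± 0.093 (adjusted p = 0.293), missed the threshold. The former was called lower by the likelihood ratio test (adjusted p = 0.0488), by DESeq2 (0.0414) and with upper-quartile scaling (0.0269).

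The 8 neutrophil-primed genes, such as Elane and Mpo, had sums of 1293 to 4911 CPM in WT mice, 2835 to 7657 CPM in miR-142 KO mice, 4550 to 7729 CPM in CP CML mice and 5917 to 8695 CPM in BC CML mice. By edgeR, 4 of the 8 rose in BC CML over CP CML, 8 in miR-142 KO over WT and 6 in CP CML over WT. In BC CML over miR-142 KO, 4 rose and 1 fell. Of all tested genes, 20.2%, 19.8%, 22.5% and 20.2% were higher in these 4 comparisons, and 19.1% were lower in the last. Csf3r did not rise in CP CML over WT or in BC CML over miR-142 KO. The 10 mature neutrophil genes had median sums of 32.1 CPM in WT, 163 CPM in miR-142 KO, 77.3 CPM in CP CML mice and 114 CPM in BC CML mice. Of these 10 genes, 5 rose and the other 5 did not pass the test in miR-142 KO over WT, and 1 rose and 3 fell in BC CML over CP CML. In CP CML over WT 3 rose and 1 fell, and in BC CML over miR-142 KO 2 rose and 7 fell. Of all tested genes, 16.3%, 17.5%, 22.8% and 19.1% fell in these comparisons, in the order given. The part of neutrophil-primed or mature neutrophil cells in the Csf3r result was not tested.

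Il6ra, which binds IL-6 but passes its signal only through gp130 (chr3:89869324-89913196, minus strand), rose in CP CML over WT and passed the test in none of the other 3 comparisons. It was at 45.6, 56.2 and 78.6 CPM in WT mice, 40.9, 59.5 and 72.9 CPM in miR-142 KO mice, 74.3, 77.8 and 91.5 CPM in CP CML mice and 58.7, 63.8 and 79.5 CPM in BC CML mice. Of the WT libraries, only replicate 3 reached the CP CML range, and the BC CML group overlapped both CP CML and miR-142 KO. The log2 fold change of CP CML over WT was 0.46 ± 0.13 (SE, edgeR adjusted p = 0.00635). It was -0.24 ± 0.13 in BC CML over CP CML (edgeR adjusted p = 0.158), and it was called, at -0.25, without WT and miR-142 KO replicates 3 (edgeR adjusted p = 0.0457) and in a fit of only the CP CML and BC CML libraries (adjusted p = 0.0166). In miR-142 KO over WT it was 0.011 ± 0.13 (edgeR adjusted p = 0.957), with a sign that changed with the library left out. It reached 0.21 among the alternatives other than leaving out 1 library, and none of those called it. In BC CML over miR-142 KO it was 0.21 ± 0.13 (edgeR adjusted p = 0.1998).

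Its partner Il6st, which holds 4 seed matches, was at 130.1 ± 27.2 CPM in WT mice (SD, n = 6), 217 ± 55.1 CPM in miR-142 KO mice, 137 ± 18.0 CPM in CP CML mice and 259.6 ± 44.7 CPM in BC CML mice. Il6st rose by 0.92 ± 0.16 (log2, SE) in BC CML over CP CML (edgeR adjusted p = 8.24e-05) and by 0.74 ± 0.16 in miR-142 KO over WT (adjusted p = 0.000752). It was not called with BCR-ABL, at 0.077 (adjusted p = 0.711) in CP CML over WT and 0.26 (adjusted p = 0.194) in BC CML over miR-142 KO. The level of Il6ra per Il6st, each per kilobase, was 0.952 to 1.12 in WT mice, 0.515 to 0.765 in miR-142 KO mice, 1.11 to 1.503 in CP CML mice and 0.539 to 0.637 in BC CML mice. Both groups without Mir142 lay wholly below their counterparts with it. The sheddases Adam10, which rose by 0.46 (edgeR adjusted p = 5.97e-07), and Adam17, which rose by 0.37 (adjusted p = 0.0013), cut Il6ra from the cell surface and were higher in BC CML than in CP CML. Adam10 also rose in miR-142 KO over WT, by 0.36 (edgeR adjusted p = 1.65e-05), where Adam17 was at 0.13 (adjusted p = 0.234).

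Il1r1, the receptor that carries the IL-1 signal (chr1:40225080-40316177, plus strand), rose in CP CML over WT and was lower again in BC CML. It was at 111, 144 and 178 CPM in WT mice, 94.7, 109 and 178 CPM in miR-142 KO mice, 183, 194 and 239 CPM in CP CML mice and 105, 110.1 and 141 CPM in BC CML mice. The 6 CP CML libraries lay above all 18 others. Il1r1 rose by 0.48 ± 0.13 (log2, SE) in CP CML over WT (edgeR adjusted p = 0.00483) and fell by 0.82 ± 0.13 from CP CML to BC CML (adjusted p = 3.71e-05). In both sexes the second difference was of like size, -0.79 in females and -0.85 in males. BC CML and miR-142 KO differed by -0.072 ± 0.13 (edgeR adjusted p = 0.689), and by 0.062 (adjusted p = 0.666) without WT and miR-142 KO replicates 3.

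In the normal background the call of Il1r1 turned on single libraries. miR-142 KO replicate 3, at 178 CPM, was far above the other 5 of its group, which were at 94.7 to 129 CPM. The log2 fold change of miR-142 KO over WT was -0.27 ± 0.13 (edgeR adjusted p = 0.109) with all libraries and -0.40 (adjusted p = 0.00529) without that library. It was -0.33 (edgeR adjusted p = 0.0488) without WT replicate 2, the lowest of the WT group, and -0.42 (adjusted p = 0.00623) without WT and miR-142 KO replicates 3. miR-142 KO replicate 3 also had the lowest neutrophil-primed sum of its group and the lowest macrophage sum, 13.2 CPM against 63.7 to 102 CPM.

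The accessory chain Il1rap rose by 0.28 (log2) in miR-142 KO over WT (edgeR adjusted p = 0.000846) and by 0.23 in CP CML over WT (adjusted p = 0.00382), and was at 0.13 (adjusted p = 0.0996) in BC CML over CP CML. The level of Il1r1 per Il1rap, each per kilobase, was 3.04 ± 0.28 on the log2 scale in WT mice (SD, n = 6), 2.48 ± 0.41 in miR-142 KO mice, 3.30 ± 0.18 in CP CML mice and 2.35 ± 0.23 in BC CML mice, without overlap between the last 2. The decoy receptor Il1r2, which binds IL-1 without signalling, was rare, at a mean of 1.98 CPM in WT mice, 1.69 CPM in miR-142 KO mice, 2.43 CPM in CP CML mice and 3.16 CPM in BC CML mice. It rose in BC CML over miR-142 KO alone among the 4 comparisons, by 0.91 (edgeR adjusted p = 0.0265). Il1r1 per Il1r2 was 4.35 ± 0.51, 4.25 ± 0.26, 4.48 ± 0.34 and 3.51 ± 0.83 in the order WT, KO, CP CML, BC CML, and all groups overlapped.

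Per kilobase of gene length, the order of the receptors in the LSKs was not the same in each group. In WT, Csf3r was highest at 50.5 ± 4.12 CPM per kb (SD, n = 6), followed by Il1r1 at 28.9 ± 4.88, Csf2ra at 24.6 ± 1.99, Csf2rb at 18.8 ± 4.86, Il6ra at 17.2 ± 3.82 and Il3ra at 15.5 ± 2.15, with Csf2rb2 last at 5.31 ± 1.82. Csf2rb, Il6ra and Il3ra were within their spread of each other, and the libraries of Csf2ra overlapped in level with those of Il1r1 and of Csf2rb. In BC CML, Csf2rb at 85.2 ± 12.3 CPM per kb and Csf2rb2 at 82.5 ± 28.2 came first and did not differ beyond their spread, followed by Csf3r at 60.8 ± 3.47 and Csf2ra at 35.5 ± 1.95. Il1r1 at 22.8 ± 2.71, Il3ra at 21.0 ± 1.72 and Il6ra at 20.1 ± 2.55 were lowest there and within their spread of each other. In CP CML Csf2rb was already first, at 60.6 ± 10.7 CPM per kb, before Csf3r at 43.2 ± 5.96, Il1r1 at 40.3 ± 4.52 and Csf2rb2 at 32.9 ± 10.3, while in miR-142 KO Csf3r led at 66.4 ± 11.6, before Csf2rb at 34.5 ± 11.03 and Csf2ra at 31.9 ± 4.42. Csf2rb2 stood last in miR-142 KO, at 11.2 ± 5.86 CPM per kb. These orders are of means, and neighbours in them often overlapped over libraries. Among these were Csf3r, Il1r1 and Csf2rb2 in CP CML, Csf2rb and Csf3r there, Csf2rb and Csf2ra in miR-142 KO, and Csf2rb2 and Csf3r in BC CML.

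The promoters of 3 receptors that rose in both comparisons of loss of Mir142 are shown to set the letters before their starts side by side. Over the 24 libraries, r of log2 CPM was -0.028 between Csf2rb2 and Csf3r, 0.574 between Csf2ra and Csf2rb2 and 0.549 between Csf2ra and Csf3r. With the group means removed these were -0.190, 0.047 and 0.265. Each promoter runs from 250 bases before to 50 bases after the start (RefSeq, GRCm38.p6), printed 5′ to 3′ on the gene's strand. Csf2rb is the gene that rose alike and is named only. The letters searched on both strands were GAGGAA (the core bound by PU.1), TTCNNNGAA (bound by STAT5), TTGCNNAA (bound by C/EBP factors) and AGATAA (bound by GATA factors), and capitals mark matches on either strand. Csf2ra is at chr19:61228369-61228668 on the minus strand, Csf2rb2 at chr15:78305672-78305971 on the minus strand and Csf3r at chr4:126024409-126024708 on the plus strand.
Csf2ra: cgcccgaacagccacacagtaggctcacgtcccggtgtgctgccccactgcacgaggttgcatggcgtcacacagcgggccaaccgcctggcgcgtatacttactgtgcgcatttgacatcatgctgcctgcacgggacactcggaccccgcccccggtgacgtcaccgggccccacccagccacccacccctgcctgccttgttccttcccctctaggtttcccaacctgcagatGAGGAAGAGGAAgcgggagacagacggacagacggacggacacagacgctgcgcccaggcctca
Csf2rb2: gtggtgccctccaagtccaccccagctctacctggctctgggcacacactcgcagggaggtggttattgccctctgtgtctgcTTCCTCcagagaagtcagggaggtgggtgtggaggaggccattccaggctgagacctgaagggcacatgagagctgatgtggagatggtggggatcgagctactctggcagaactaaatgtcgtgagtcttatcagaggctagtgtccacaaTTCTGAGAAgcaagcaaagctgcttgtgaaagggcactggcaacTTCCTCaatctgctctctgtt
Csf3r: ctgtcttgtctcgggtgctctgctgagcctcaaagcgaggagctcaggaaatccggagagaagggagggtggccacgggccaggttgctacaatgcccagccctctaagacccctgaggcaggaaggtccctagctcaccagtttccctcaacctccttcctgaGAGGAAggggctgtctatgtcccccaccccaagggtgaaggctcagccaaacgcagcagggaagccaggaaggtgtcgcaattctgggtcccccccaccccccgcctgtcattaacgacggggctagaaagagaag
GAGGAA stood 2 times in a row in the Csf2ra promoter, at -14 and -8 from the start, 1 time in that of Csf3r at -86, and 2 times in that of Csf2rb2, at -167 and 30, both on the opposite strand. The Csf2rb2 promoter also held TTCNNNGAA at -15. Among all 32851 promoters of the same length, 28.3% held GAGGAA, 8.30% TTCNNNGAA, 10.8% TTGCNNAA and 11.2% AGATAA. The Il6ra promoter held GAGGAA and AGATAA, and that of Il3ra held TTGCNNAA, as did 1 of the 2 entries for Il1r1, while the other entry held none of these motifs. A match is a description of these letters and not a binding site.

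Of the 6 genes for the ligands, 3 had enough counts to test. Il3 had 0 counts in all 24 libraries, Csf3 had 0 to 3 and Csf2 0 to 46. None of the other 3 rose or fell in BC CML over CP CML by edgeR, DESeq2 or at an unadjusted p under 0.05, and in miR-142 KO over WT none passed edgeR's quasi-likelihood test, 1 was higher and 1 lower at an unadjusted p under 0.05, and DESeq2 called those. In CP CML over WT, Il1b rose by 3.88 on the log2 scale (edgeR adjusted p = 6.41e-06) and Il6 by 2.19 (adjusted p = 0.00848), from means of 0.332 and 2.02 CPM in WT to 4.99 and 9.21 CPM in CP CML. Il1b rose by 2.36 in BC CML over miR-142 KO (edgeR adjusted p = 0.000634), and Il1a by 4.16 (adjusted p = 0.000242), from a mean of 0.286 to 5.17 CPM. The median of the 3 tested was 0.018 in BC CML over CP CML, against 0.014 for all tested genes.

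Among 10 partner chains and regulators, 4 rose and 1 fell in BC CML over CP CML, with a median of 0.37. In the same order, 4 and 0, 3 and 1, and 3 and 2 passed in miR-142 KO over WT, CP CML over WT and BC CML over miR-142 KO. Over all tested genes, 20.2% rose and 17.5% fell in BC CML over CP CML, with a median of 0.014. The shares in the other comparisons were 19.8% and 16.3%, 22.5% and 22.8%, and 20.2% and 19.1%. The IL-5 alpha chain Il5ra fell by 1.41 on the log2 scale in BC CML over CP CML (edgeR adjusted p = 0.00357), from a mean of 6.22 to 2.34 CPM. It uses the same beta chain as Csf2ra and Il3ra, which did not fall. The summed level of 6 eosinophil genes, cells that make Il5ra, was 333 to 1453 CPM in CP CML and 60.0 to 245 CPM in BC CML, and 5 of the 6 fell; their part in the Il5ra result was not tested.

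The 38 tested of 40 other cytokine receptors went both ways: 9 rose and 10 fell in BC CML over CP CML, with a median of 0.078. Of all tested genes, 20.2% rose and 17.5% fell there, with a median of 0.014. In the other comparisons in the same order, 12 and 4, 14 and 6, and 8 and 11 rose and fell. The shares of all tested genes in those were 19.8% and 16.3%, 22.5% and 22.8%, and 20.2% and 19.1%. The TGF-beta receptor Tgfbr1 rose by 1.14 (log2), the interferon-gamma receptor chain Ifngr2 by 0.93 and the TNF receptor Tnfrsf1a by 0.71 in BC CML over CP CML, with edgeR adjusted p of 7.14e-10, 3.47e-09 and 2.1e-08. They rose by 0.73, 0.82 and 0.65 in miR-142 KO over WT. Flt3, a receptor of early progenitors, fell by 1.23 (edgeR adjusted p = 1.61e-06) and the stem cell factor receptor Kit by 0.46 (adjusted p = 0.000458) in BC CML over CP CML, while Csf1r, the M-CSF receptor, was at 0.19 (adjusted p = 0.681).

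Of 27 genes for signalling parts below the receptors, 3 rose and 6 fell in BC CML over CP CML, with a median of -0.011. For all tested genes the shares there were 20.2% and 17.5%, and the median was 0.014. Counts in the other comparisons were 11 and 2 in miR-142 KO over WT, 8 and 5 in CP CML over WT and 4 and 8 in BC CML over miR-142 KO. The shares of all tested genes in that order were 19.8% and 16.3%, 22.5% and 22.8%, and 20.2% and 19.1%. Cblb, a ubiquitin ligase that restrains receptor signals, fell by 0.41 (log2), the adaptor Sh2b3 rose by 0.38, the exchange factor Sos1 rose by 0.39 and Traf6, which acts below Il1r1, fell by 0.24 in BC CML over CP CML. Jak2, the kinase on the beta chain, was at -0.085 there (edgeR adjusted p = 0.428) and fell by 0.22 in CP CML over WT (adjusted p = 0.0317). Stat5a was at 0.099 and Stat5b fell by 0.15 (edgeR adjusted p = 0.00543) in BC CML over CP CML. Myd88, the adaptor of Il1r1, rose by 0.90 in CP CML over WT (edgeR adjusted p = 1.52e-06) and was at 0.042 in BC CML over CP CML.

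Of 15 genes known as targets of these signals, 2 rose and 3 fell in BC CML over CP CML, with a median of -0.25, and 8 rose and none fell in CP CML over WT, with a median of 0.60. In miR-142 KO over WT, 2 rose and 1 fell, and in BC CML over miR-142 KO, 3 rose. In all tested genes, 20.2% rose and 17.5% fell in BC CML over CP CML, and 19.8% and 16.3% in miR-142 KO over WT. The shares were 22.5% and 22.8% in CP CML over WT and 20.2% and 19.1% in BC CML over miR-142 KO. Cish, a STAT5 target that restrains cytokine receptors, rose by 0.90 (log2) in BC CML over CP CML (edgeR adjusted p = 0.00273), from a mean of 20.2 to 37.7 CPM. The survival gene Bcl2l1 rose by 0.34, and the kinase Pim2 fell by 0.65 and the cyclin Ccnd2 by 0.53. Among 12 myeloid transcription factors, 4 rose and none fell in BC CML over CP CML, with a median of 0.23, and 8 and 0, 6 and 1, and 4 and 1 passed in the other comparisons in the same order. PU.1 (Spi1), which is known to act on the genes of the GM-CSF and G-CSF receptors, rose by 0.22 in BC CML over CP CML (edgeR adjusted p = 0.0129), 0.38 in miR-142 KO over WT and 0.46 in CP CML over WT. Gfi1 rose by 0.62, Myb by 0.24 and Cebpd by 0.49 in BC CML over CP CML.

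The genes with levels most like each receptor over the 24 libraries are given as a description, as Pearson's r of log2 CPM. All points share their library, and the groups differ in level, so r with the group means removed follows each value. Csf2rb2 and Csf2rb were among the 3 closest of each other, at 0.976 and 0.916, and some reads can fit both genes. Csf2rb was closest to Pfkp, a glycolytic enzyme, at 0.978 and 0.827, and Csf2rb2 had Ero1l at 0.970 and 0.769. Csf2ra was closest to Mgl2 at 0.932 and 0.813, Il3ra to Padi2 at 0.846 and 0.658, and Csf3r to Lrp11 at 0.902 and 0.671. By Spearman's rank correlation, only 1 of the 3 closest genes of Il3ra, and 1 of Csf3r, stayed among the 3 closest. For the other receptors 2 or 3 stayed. Il6ra was closest to Rassf4 at 0.874 and 0.795, with the chemokine receptor Cx3cr1 at 0.867 and 0.893, and Il1r1 to Gramd4 at 0.938 and 0.861, with Pdgfrb at 0.920 and 0.803. Csf2ra and Csf2rb, which form 1 receptor, had an r of 0.596 that came to 0.033 with the group means removed, whereas Il3ra and Csf2rb had 0.746 and 0.568.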

How the data were processed

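RNA from sorted LSKs of 24 mice (4 groups of 6) was sequenced as paired reads from a poly(A)-selected library. According to the methods and the submitters' processing notes, reads were trimmed with Trimmomatic, aligned to mm10 with STAR 2.6.0 and counted with HTSeq 0.11.1, and the authors deposited raw counts per gene, with a gene length in kilobases as the other numeric column used here. The annotation and the strand setting of the counting are not given in the sources used here, so how reads of overlapping genes were counted is not known. The table held 16267965 to 24687077 counts per library.

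Counts were analysed with edgeR 4.0.16 in R 4.3.3. Genes were kept with filterByExpr, libraries scaled by TMM, and all 24 libraries fitted in a robust quasi-likelihood model with a coefficient per group, so that the comparisons share an estimate of spread. P-values were adjusted over the 13520 tested genes by the Benjamini-Hochberg method with a threshold of 0.05, and they measure the spread between mice. CPM used TMM-scaled library sizes, and log2 CPM used a prior count of 2. Alternatives were the likelihood ratio test, DESeq2 1.42.0, upper-quartile scaling, other filters on low counts, a fit of only the libraries compared, a fold limit, and leaving out each library. A fit without WT and miR-142 KO replicates 3 was added after the data were seen.

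The receptors and the gene lists were chosen with earlier results of these data known. Named beside the receptors are the ligands, up to 4 genes of each list with the smallest p in BC CML over CP CML at a mean of at least 1 CPM, a fixed set of neighbours (Il6st, Il1rap, Il1r2, Kit, Flt3, Csf1r, Jak2, Stat5a, Stat5b and Myd88, with a further gene not reported here), and the 3 genes closest to each receptor by Pearson's r. Marker genes of cell types and Mir142 are named outside this rule, and any other genes outside it are said to be. Sequences came from RefSeq (GRCm38.p6) and GENCODE (GRCm38), where 93.3% of tested genes matched a 3′ UTR; motif and alignment steps used Biopython 1.88.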

Additional observations from a re-analysis of the deposited data

Results flagged for a closer look

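In 28 groups of 6 libraries (7 receptors in 4 groups), 3 had a library set far from the other 5, where chance gives about 1 in 20. Each is measured as the gap to the nearest other library over the range of the group, both on log2 CPM. Csf2ra was 52.3 CPM in WT replicate 3 and 42.5 to 45.5 CPM in the other WT libraries, a gap of 0.668 of the range; this is the WT library with the high macrophage and neutrophil-primed sums. Il6ra was 91.5 CPM in CP CML replicate 3 and 74.3 to 79.8 CPM in the others, a gap of 0.652. Il1r1 was 141 CPM in BC CML replicate 5 and 105 to 114 CPM in the others, a gap of 0.722. The call of Il1r1 as lower in BC CML than CP CML does not rest on that library, which is the BC CML library nearest to CP CML.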

How the results depend on the processing

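Of 1183 alternative values of the receptors' log2 fold changes, 1122 kept direction and side of the threshold, 31 lost and 22 gained the call, and 8 changed sign. All sign changes were of values not called: Il6ra in miR-142 KO over WT, at -0.036 with upper-quartile scaling and from -0.055 to 0.13 with a library left out, and Il1r1 in BC CML over miR-142 KO, at 0.062 without miR-142 KO replicate 3 or without both libraries that stood apart, and otherwise down to -0.15. Against 5, 5 and 5 receptors called in BC CML over CP CML, miR-142 KO over WT and CP CML over WT, a fold limit of 1 on the log2 scale left 1, 1 and 2. Leaving out a library gave 4 to 5, 5 to 6 and 4 to 6, with 2 throughout in BC CML over miR-142 KO. The difference of the miR-142 effects had 0 to 1 called with a library left out, Il1r1 at -0.64 without WT replicate 4 or BC CML replicate 5, and 1 with DESeq2; over all genes it had 526 calls, 891 with DESeq2 and 954 without both libraries. The cause was not tested. Csf2rb in BC CML over CP CML lost its call without 1 of 13 libraries in turn and with no filter on low counts (adjusted p = 0.0654). Csf2rb2 in miR-142 KO over WT lost its call in a fit of only those libraries (edgeR adjusted p = 0.0628). Ratios taken without gene length, log2 in the order WT, KO, CP CML, BC CML, were -1.11, -1.60, -2.64 and -2.79 for Csf2ra per Csf2rb, -2.20, -2.74, -3.64 and -3.96 for Il3ra per Csf2rb, -1.18, -1.89, -0.78 and -1.93 for Il6ra per Il6st, 2.29, 1.72, 2.54 and 1.60 for Il1r1 per Il1rap, 6.26, 6.16, 6.39 and 5.42 for Il1r1 per Il1r2, and -2.03 in WT for Csf2rb2 per Csf2rb; the shift is the constant log2 ratio of the lengths. No paired analysis was possible because the labels give the groups no shared replicate numbers. Depth did not limit the receptors, while ligands under the filter on low counts cannot be compared.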

Other observations

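Among interleukin receptors outside the 7, Il1rl1, Il2ra and Il4ra were chosen for description after their values were seen. Il1rl1, the IL-33 receptor of mast cells and other type 2 immune cells, rose by 3.37 ± 0.37 (log2, SE) in miR-142 KO over WT and by 1.096 ± 0.33 in BC CML over CP CML, with edgeR adjusted p of 6.11e-07 and 0.0134. The difference between these, -2.27 ± 0.48, passed the test (edgeR adjusted p = 0.011). Il1rl1 rose by 4.73 in CP CML over WT (edgeR adjusted p = 2.57e-08). It is a gene that mast cells make, and the summed level of mast cell and basophil markers moved the same way. The part of these cells was not tested. Il2ra, the IL-2 receptor alpha chain, rose by 5.22 ± 0.65 in miR-142 KO over WT (edgeR adjusted p = 3.04e-06), by 3.43 ± 0.56 in BC CML over CP CML (adjusted p = 6.84e-05) and by 2.59 ± 0.65 in CP CML over WT (adjusted p = 0.00292). Il4ra, shared by the IL-4 and IL-13 receptors, rose by 1.19 ± 0.15 in CP CML over WT (edgeR adjusted p = 3.57e-06) and by 1.15 ± 0.15 in BC CML over miR-142 KO (adjusted p = 7.36e-06).

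Markers of other cells in the sorted fraction moved too, given as summed CPM in the order WT, KO, CP CML, BC CML. Stem cell genes had medians of 783, 534, 533 and 404 CPM, and lymphoid-primed genes 2424, 1062, 1375 and 752 CPM. Monocyte and dendritic cell genes had 475, 1000.5, 1243 and 1579 CPM, though in BC CML over CP CML 2 of the 10 fell and the other 8 did not pass the test by edgeR. Of all tested genes, 17.5% fell in that comparison. Macrophage genes had 128, 68.1, 263 and 107 CPM, megakaryocyte genes 188, 409, 238 and 259 CPM, and erythroid genes 85.3, 71.8, 16.04 and 4.07 CPM. B and plasma cell genes had 394, 38.4, 335 and 36.4 CPM and T and NK cell genes 71.5, 127, 76.5 and 99.5 CPM. Their part in the receptor results was not tested.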
